A study of Canis lupus familiaris with 20 samples.

Results

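The channels and exchangers that carry the light-controlled current of photoreceptors, with a potassium channel subunit of the same cells, were followed as 6 of the 12435 genes named on the arrays: CNGB3 and CNGA3 of the cone channel, CNGA1 of the rod channel, the potassium channel subunit KCNV2, the cone exchanger SLC24A2 and the rod exchanger SLC24A1. They were found on the dog arrays by gene name or, for SLC24A1, by the probe's description, which gave 10 of 43603 probes, and 9 of these, for 5 genes, could be tested. Retinas came from 10 dogs, 1 array per eye, in 4 groups of 5. Each right eye had received 12 µg of intravitreal ciliary neurotrophic factor (CNTF), a cytokine acting through gp130 receptors, and each left eye phosphate-buffered saline (PBS), and retinas were taken 1 week later. The normal dogs, all male, were 4 CNGB3+/m carriers and 1 CNGB3+/+ dog, number 3. The mutants were CNGB3m/m, carrying the D262N missense change, and 3 of the 5 were female. By the sample labels each normal dog was 8.9 weeks old and the mutants were 10.7 to 11.5 weeks old. The series design text instead puts both near 11 months, and age was not used. The dogs came from a research colony, and the control eye of each dog had itself been injected.

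In darkness, cyclic GMP holds the cyclic nucleotide-gated channels of the outer segment open, and sodium and calcium enter. Light lowers cyclic GMP and closes the channels, while sodium/calcium-potassium exchangers go on removing calcium, so that calcium falls and the cell recovers its sensitivity. Rods use CNGA1 with CNGB1 and the exchanger SLC24A1, and cones use CNGA3 with CNGB3 and SLC24A2. KCNV2 encodes Kv8.2, a potassium channel subunit silent on its own that works only in complexes with other subunits, and loss of CNGB3 is a cause of achromatopsia, or day blindness.

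What each array spot could detect is set by a 60-base probe, shown here from the array files with canFam2 positions. No annotation of that build was used here, so exons and untranslated regions are not assigned, and 4 probes that may lie in untranslated sequence are given by their first 30 bases only.
CNGB3 (chr29:35752922-35752981, minus strand, first 30): ttatgtgtgtgttgaagtcttgcacgacag
CNGA3 (chr10:47358222-47358281, minus strand): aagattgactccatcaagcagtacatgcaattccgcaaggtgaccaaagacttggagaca
KCNV2 main probe (chr1:94416315-94416374, plus strand): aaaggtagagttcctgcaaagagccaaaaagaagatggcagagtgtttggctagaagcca
KCNV2 second probe (chr1:94416981-94417040, plus strand, first 30): tgtcgttgtctaatacactttctaggtgga
SLC24A2 main probe (chr11:42306755-42306814, minus strand, first 30): ggaggtacattcattgtaatgatgcaaaca
SLC24A2 second probe (chr11:42319679-42319738, minus strand): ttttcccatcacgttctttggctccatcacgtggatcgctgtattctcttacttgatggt
The third SLC24A2 probe (chr11:42547047-42547106, minus strand): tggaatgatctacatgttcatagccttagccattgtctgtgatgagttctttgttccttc
CNGA1 main probe (chr13:46765879-46765938, minus strand, first 30): aatactctataaaagcgaacaagtatccct
CNGA1 second probe (chr13:46766226-46766285, minus strand): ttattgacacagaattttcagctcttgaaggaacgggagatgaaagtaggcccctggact
SLC24A1 (chr30:32986129-32986188, plus strand): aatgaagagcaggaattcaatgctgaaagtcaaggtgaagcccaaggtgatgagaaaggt
The 3 SLC24A2 probes lay across 240352 bases of chromosome 11, so they read different parts of the transcript. The CNGA1 probes fell within 407 bases of each other, and the 2 KCNV2 probes within 726. D262N is a missense change and no deletion, so the CNGB3 level does not test the genotype labels. For a gene with several probes, the main probe was that with the highest mean signal over the 20 arrays.

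Levels are log2 intensities relative to the 75th percentile of their array and are compared only within a probe. On each array 52.0 to 71.8% of probes were well above background. Each slide carried 4 arrays, and treatment largely followed slide: slide 1 held PBS arrays of normal dogs only and slide 5 CNTF arrays of mutants only. Slide 3 alone held both treatments, with PBS arrays of mutants 4 and 5 and CNTF arrays of normal dogs 1 and 2. Slide 2 held the PBS arrays of normal dog 5 and mutants 1 to 3, and slide 4 the CNTF arrays of normal dogs 3 to 5 and mutant 1. A fit with slide as a block therefore rests on these few arrays, and values from it and from within slide 3 are given with each gene. They are not separate checks, since each slide-block change contains the slide 3 value. In normal dogs the rest is the genotype difference in PBS eyes of slide 2, where PBS normal 5 was the only normal array. The mutant change instead takes in the genotype difference in CNTF eyes of slide 4, where CNTF mutant 1 was the only mutant array. For CNGB3 in normal dogs, -0.82 came from slide 3 and -1.02 from slide 2. The slide 3 values set CNTF arrays of normal dogs against PBS arrays of mutants, so they cross genotypes and dogs. RNA came from whole retina, in which fewer cells of a type and less RNA per cell cannot be told apart.

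All 5 measured genes were lower in CNTF than in PBS eyes, in normal dogs and in mutants, and this held for every dog measured in both eyes at the main probes. The 5 main probes passed the test in normal dogs, where 51.2% of all 29334 probes tested passed it, 27.6% being lower and 23.6% higher in CNTF eyes. They also passed it in mutants, where 28.9% of probes passed, 17.3% lower and 11.6% higher. Higher probes made up 46.0% of the calls in normal dogs and 40.2% in mutants, and 59.0% and 49.9% with scaling to the median, 61.2% and 56.0% with normexp background correction and 75.2% and 62.8% with slide as a block. CNGA1 and SLC24A1, the rod channel and rod exchanger, fell 3.60-fold to 4.98-fold. CNGB3 and SLC24A2 of cones fell 1.47-fold to 2.50-fold, and differences between genes were not tested. In normal dogs the PBS and CNTF arrays did not overlap at any of the 5 main probes, against 15.8% of all probes lower without overlap. In mutants they did not overlap at 4 of the 5, the exception being SLC24A2, against 7.87% of all probes.

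**Figure D1:**
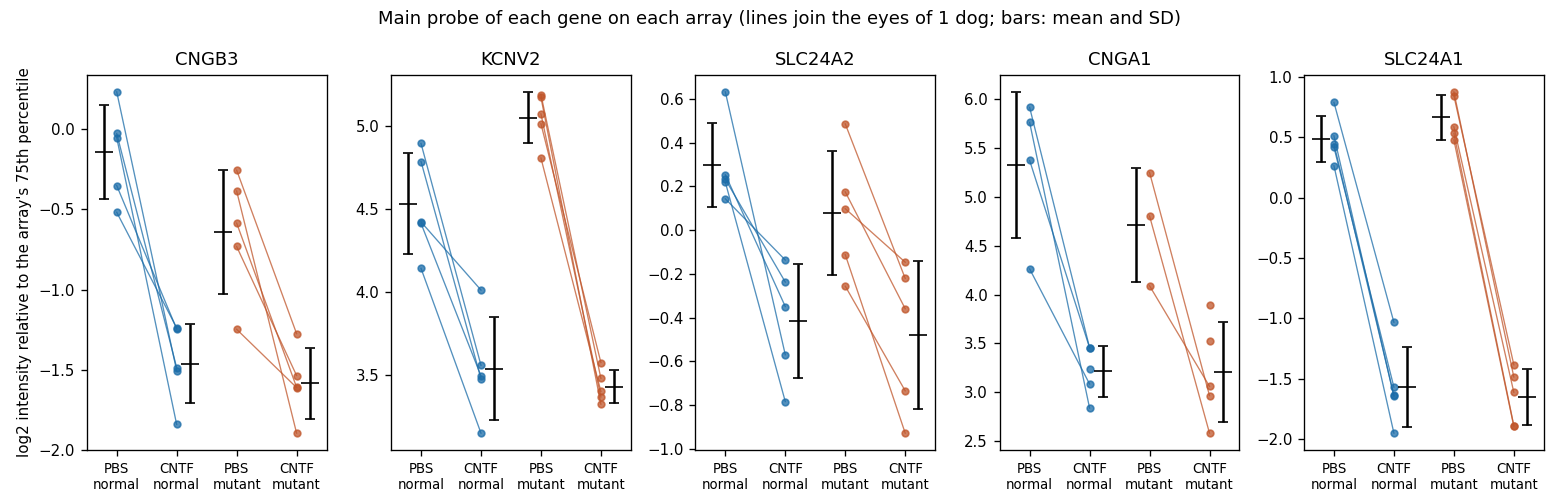
Level of the main probe of each gene on each array, as log2 intensity relative to the array's 75th percentile, with lines joining the PBS and CNTF eyes of 1 dog and black bars for the mean and SD of each group. Every joined line runs downwards, and CNGA1 has no value on 3 PBS arrays, where its spot was marked as non-uniform.

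CNGB3, the beta subunit of the cone channel and the gene mutated in these dogs, fell in both genotypes. In PBS eyes of normal dogs 1 to 5 its levels were -0.52, -0.35, -0.054, -0.028 and 0.23, and in their CNTF eyes -1.24, -1.25, -1.84, -1.49 and -1.51. In mutants 1 to 5 they were -0.39, -0.73, -1.25, -0.26 and -0.59 in PBS eyes and -1.90, -1.54, -1.61, -1.28 and -1.61 in CNTF eyes. All CNTF arrays lay below all PBS arrays within each genotype, with PBS mutant 3 the lowest of the PBS eyes and close to the CNTF range. The change in normal dogs was -1.32 ± 0.19 (SE, n = 5 dogs), a 2.50-fold fall (limma, adjusted p = 0.000289). In mutants it was -0.94 ± 0.19 (n = 5), a 1.92-fold fall (limma, adjusted p = 0.00328). With slide as a block it was -1.84 in normal dogs (adjusted p = 0.014) and -1.11 in mutants, no longer called (adjusted p = 0.189). Within slide 3 the CNTF arrays of normal dogs and the PBS arrays of mutants differed by -0.82. Normexp background correction also ended the mutant call, at -0.49 (adjusted p = 0.117).

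CNGA3, the alpha subunit of the same channel, could not be followed. Its only probe was well above background on 0 of 20 arrays, with processed intensities of 3.23 to 9.09, whereas the lowest intensity counted as well above background was between 15.4 and 44.6 depending on the array. These values set only an upper bound on the probe's own signal in every group, and no fold is given. Whether the probe can detect CNGA3 RNA was not tested. Other cone genes were read on the same arrays: each of 10 cone markers was well above background on at least 18 of the 20.

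KCNV2, the silent potassium channel subunit, fell in both genotypes. In normal dogs 1 to 5 its levels were 4.90, 4.79, 4.42, 4.14 and 4.41 in PBS eyes and 3.56, 3.48, 4.01, 3.15 and 3.49 in CNTF eyes. In mutants 1 to 5 they were 4.81, 5.08, 5.18, 5.02 and 5.19 in PBS eyes and 3.40, 3.37, 3.32, 3.57 and 3.48 in CNTF eyes. The mutant PBS arrays sat high and close together, and the mutant CNTF arrays lay within the range of those of normal dogs. The fall was -0.997 ± 0.14 (SE, n = 5) in normal dogs, 1.995-fold (limma, adjusted p = 0.000213), and -1.63 ± 0.14 (n = 5) in mutants, 3.09-fold (limma, adjusted p = 7.35e-06). Normal dog 3 fell least at -0.41, and the mutants changed by -1.41 to -1.86. The second probe gave -0.96 in normal dogs and -1.71 in mutants, both called, but neither with slide as a block (-1.32, adjusted p = 0.349, and -2.23, adjusted p = 0.168). At the main probe the fit with slide as a block gave -0.98 in normal dogs, no longer called (adjusted p = 0.209), and -1.74 in mutants (adjusted p = 0.0339). Within slide 3 the CNTF arrays of normal dogs and the PBS arrays of mutants differed by -1.59, and the mutants' mean in PBS eyes was itself 0.52 above that of the normal dogs.

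SLC24A2, the cone sodium/calcium-potassium exchanger, had the smallest measured change of the 5 genes. In normal dogs 1 to 5 its levels were 0.25, 0.23, 0.63, 0.14 and 0.22 in PBS eyes and -0.35, -0.24, -0.57, -0.14 and -0.78 in CNTF eyes. In mutants 1 to 5 they were 0.49, -0.26, 0.098, -0.11 and 0.18 in PBS eyes and -0.22, -0.73, -0.15, -0.93 and -0.36 in CNTF eyes. Normal dog 3 stood above the other PBS eyes of normal dogs, and the PBS eye of mutant 2 lay below the CNTF eyes of mutants 1 and 3. The change was -0.71 ± 0.14 (SE, n = 5) in normal dogs, 1.64-fold lower (limma, adjusted p = 0.00205), and -0.56 ± 0.14 (n = 5) in mutants, 1.47-fold lower (limma, adjusted p = 0.0119). The second probe gave -0.58 and -0.63, both called. The third probe was well above background on all PBS arrays but on only 2 of 5 CNTF arrays of normal dogs and 3 of 5 of mutants, so its values of -0.70 and -0.74 rest partly on signals with only a bound and are no further support. There 1 normal dog was higher in its CNTF eye. With slide as a block neither change was called, at -0.44 in normal dogs (adjusted p = 0.599) and -0.049 in mutants (adjusted p = 0.989), and within slide 3 the difference was -0.33. The mutant call was also lost with normexp correction (adjusted p = 0.0987), in male dogs only (adjusted p = 0.0927) and without the 4 dogs of slide 3 (adjusted p = 0.154).

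CNGA1, the alpha subunit of the rod channel, fell in both genotypes, with the largest measured change in normal dogs. At its main probe the spots of PBS normal 4 and of PBS mutants 4 and 5 were marked as non-uniform and left out. Levels in the PBS eyes of normal dogs 1, 2, 3 and 5 were 4.26, 5.38, 5.92 and 5.77, and in CNTF eyes of normal dogs 1 to 5 they were 3.08, 3.45, 3.45, 3.24 and 2.84. In PBS eyes of mutants 1 to 3 they were 4.81, 5.25 and 4.09, and in CNTF eyes of mutants 1 to 5 they were 2.58, 2.96, 3.06, 3.89 and 3.52. No CNTF array reached a PBS array of its genotype, and PBS normal 1 was more than 1 unit below the other PBS arrays of normal dogs. The change was -2.12 ± 0.31 (SE, n = 4 dogs measured in both eyes) in normal dogs, 4.36-fold lower (limma, adjusted p = 0.000997), and -1.85 ± 0.35 (n = 3) in mutants, 3.60-fold lower (limma, adjusted p = 0.00572).

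The second CNGA1 probe was measured on all 20 arrays. Its PBS levels were 3.097, 4.11, 4.63, 4.47 and 4.57 in normal dogs 1 to 5 and 3.497, 4.03, 2.85, 4.46 and 4.08 in mutants 1 to 5. Its CNTF levels were 1.80, 2.15, 2.13, 1.99 and 1.77 in normal dogs and 1.23, 1.81, 1.83, 2.83 and 2.24 in mutants. PBS normal 1 and PBS mutant 3 were again the lowest of their groups, and the 2 probes correlated at r = 0.997 over the 17 shared arrays. The fall was -2.21 ± 0.22 (SE, n = 5) in normal dogs (limma, adjusted p = 2.58e-05) and -1.79 ± 0.22 (n = 5) in mutants (limma, adjusted p = 0.000141). With slide as a block it was -3.41 in normal dogs (adjusted p = 0.0122) and -3.03 in mutants (adjusted p = 0.031), and within slide 3 the difference was -2.30. At the main probe no slide block could be fitted, because slide 3 had no PBS value.

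SLC24A1, the rod exchanger that clears calcium from the outer segment, fell in both genotypes with the smallest standard error of the 5 genes. In normal dogs 1 to 5 its levels were 0.51, 0.42, 0.45, 0.26 and 0.79 in PBS eyes and -1.65, -1.57, -1.64, -1.95 and -1.03 in CNTF eyes. In mutants 1 to 5 they were 0.88, 0.59, 0.84, 0.53 and 0.48 in PBS eyes and -1.49, -1.61, -1.38, -1.89 and -1.89 in CNTF eyes. PBS and CNTF arrays were parted by more than 1 log2 unit, and normal dog 5 was the highest of its group in both eyes. The fall was -2.05 ± 0.088 (SE, n = 5) in normal dogs, 4.15-fold (limma, adjusted p = 9.82e-08), ranging from -1.82 to -2.21 over the dogs. In mutants it was -2.32 ± 0.088 (n = 5), 4.98-fold (limma, adjusted p = 1.19e-07), from -2.20 to -2.42. Of 29334 probes 90 had a lower log2 change in normal dogs and 48 in mutants. With slide as a block it was -2.13 (adjusted p = 0.00458) and -2.06 (adjusted p = 0.00783), and within slide 3 the difference was -2.11.

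**Figure D2:**
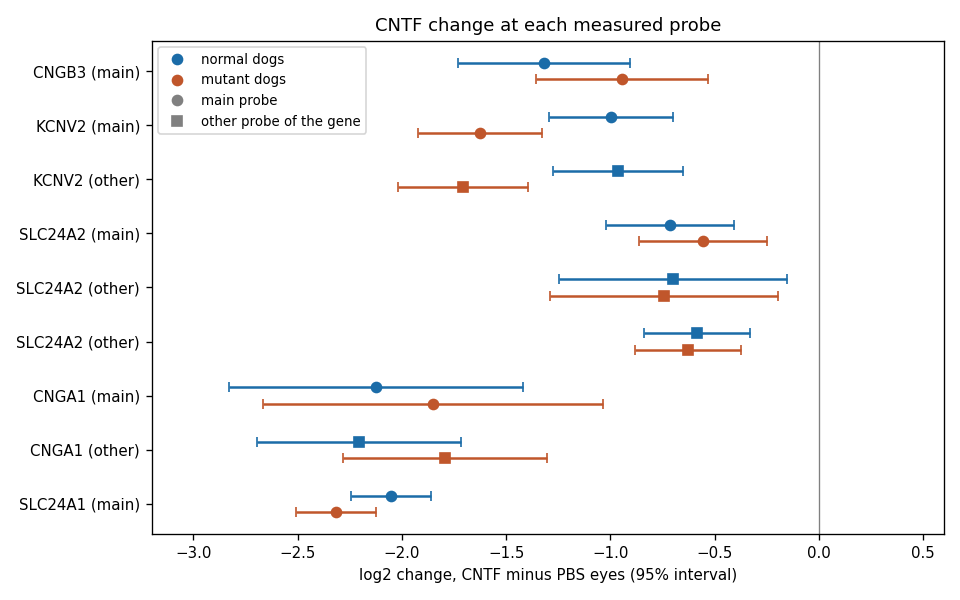
Log2 change between CNTF and PBS eyes at each of the 9 measured probes, with 95% intervals, for normal dogs (blue) and mutants (orange), circles for main and squares for other probes of a gene. All intervals lie below 0, from SLC24A2 nearest to 0 to SLC24A1 and CNGA1 farthest from it.

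The fits with slide are set beside the reported ones in the plot of dog and slide terms. Slide as a random or fixed block was fitted without a dog term, so the eyes of a dog were not paired there. With slide as a random block all main probes kept their calls in both genotypes, with SLC24A1 at -2.04 in normal dogs. With both slide and dog as blocks no member was called, and SLC24A1 came nearest, at -1.93 in normal dogs (adjusted p = 0.0769) and -2.47 in mutants (adjusted p = 0.0609). That fit called 0 of 29186 probes in normal dogs, of which 4752 had an unadjusted p under 0.05, and 47 in mutants.

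**Figure D3:**
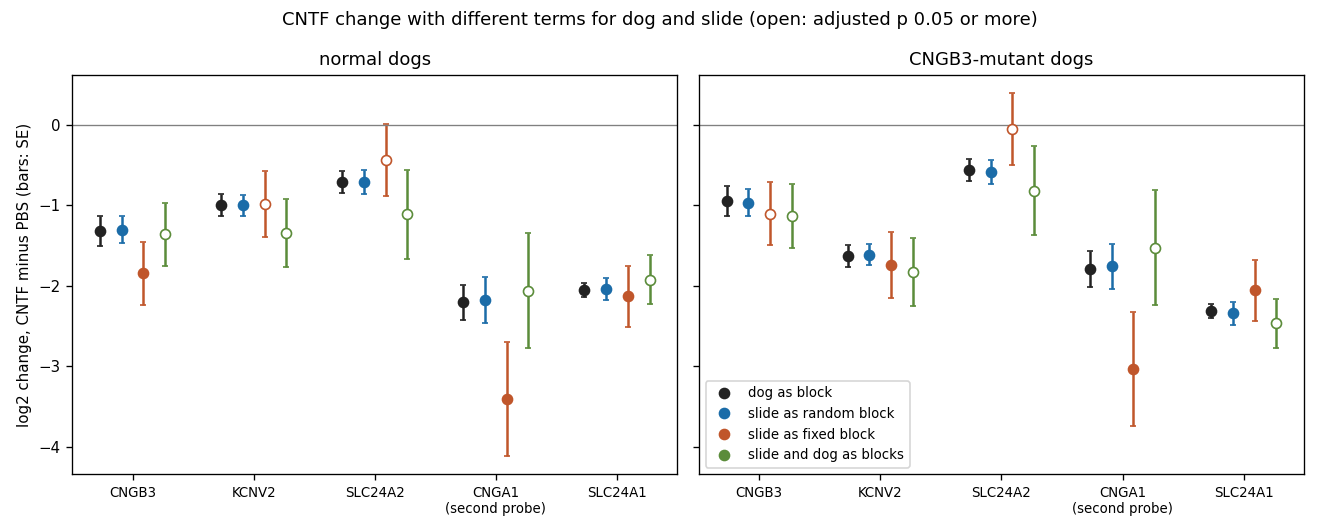
Log2 change between CNTF and PBS eyes at the main probes and, for CNGA1, the second probe, as points with bars for the SE. Fits had the dog as a block, slide as a random or fixed block without a dog term, or slide and dog as blocks. Open points have an adjusted p of 0.05 or more. All points lie below 0, and bars are wider with slide as a fixed block than with the dog alone, SLC24A2 in mutants lying at -0.049.

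Whether the CNTF change depended on genotype was asked by the difference of the 2 changes, mutant minus normal. In this comparison 0 of 29334 probes were called (limma, percent called 0), although 10162 had an unadjusted p under 0.05. The largest difference among the members was that of KCNV2, -0.63 ± 0.19, with a 95% interval of -1.05 to -0.21 and an adjusted p of 0.103 (limma). Its second probe gave -0.74 ± 0.20, with the same adjusted p of 0.103. SLC24A1 differed by -0.26, with an interval of -0.54 to 0.0092, and CNGB3 by 0.38, with an interval of -0.21 to 0.96. For SLC24A2 the interval ran from -0.28 to 0.59 and for CNGA1 from -0.80 to 1.36.

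Mutant and normal dogs were compared in PBS eyes, where 8 of 29422 probes were called (limma), or 0.0272%, and 10183 had an unadjusted p under 0.05. No member was among the called. CNGB3 averaged -0.14 ± 0.29 in normal dogs and -0.64 ± 0.39 in mutants (SD, n = 5 each), a difference of -0.50 with a 95% interval of -0.95 to -0.049 (limma, adjusted p = 0.122). KCNV2 went the other way, at 4.53 ± 0.31 in normal dogs and 5.05 ± 0.15 in mutants (SD, n = 5 each), a difference of 0.52 with an interval of 0.17 to 0.87 (limma, adjusted p = 0.0953). The groups overlapped for both genes. Within slide 2, where only PBS normal 5 stood for the normal dogs, the differences were -1.02 for CNGB3 and 0.61 for KCNV2, neither called with slide as a block (adjusted p = 0.34 and 0.342). The KCNV2 difference was called with slide as a random block (0.49, adjusted p = 0.0195), without normal dog 1 (0.61, adjusted p = 0.036) and without the dogs of slide 3 (0.69, adjusted p = 0.0394). CNGB3 was called only in the last of these among the settings tried (-0.84, adjusted p = 0.0487). The number of probes called was 9935 with slide as a random block, against 8 in the reported fit. Without normal dog 1 it was 6292, and without the dogs of slide 3 it was also 6292. In male dogs only, which leaves 2 mutants, the differences were -0.18 for CNGB3 and 0.38 for KCNV2, neither called. Genotype also went with labelled age, and those cannot be told apart.

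CNGA1, SLC24A1 and SLC24A2 differed between PBS eyes by -0.62 (interval -1.60 to 0.37), 0.18 (-0.12 to 0.48) and -0.22 (-0.57 to 0.13). Without normal dog 1 the CNGA1 difference was -0.97 (limma, adjusted p = 0.0622). In CNTF eyes 2 of 29355 probes were called (limma), or 0.00681%, and 1643 had an unadjusted p under 0.05. There the members differed between genotypes by -0.12 to -0.011, all with adjusted p = 1. The widest of the 5 intervals was that of CNGA1, -0.53 to 0.51. Within slide 4, where mutant 1 alone stood for the mutants, the differences ran from -0.60 for CNGA1 to 0.28 for SLC24A2.

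With group means taken out, few members varied together. CNGB3 correlated with CNGA1 at r = 0.619 at the main probes over 17 arrays and at 0.715 at the second CNGA1 probe over 20, and the other 9 pairs of main probes ran from -0.503, for CNGB3 and KCNV2, to 0.022. The value farthest from 0 between genes was -0.806, for the second KCNV2 probe and the main SLC24A2 probe, where the main KCNV2 probe gave -0.332. PBS normal 1 and PBS mutant 3 were the lowest PBS arrays of their groups for both CNGB3 and CNGA1. These points share arrays, slides and scaling and are a description. Among 11018 named probes above background on all arrays, those most alike to CNGB3 over the 20 arrays were PCMTD1 (r = 0.951), FAIM (0.947) and DYNLRB2 (0.947). For CNGA1, over 17 arrays, they were CLUL1 (0.979), FAIM (0.977) and USP1 (0.966), so FAIM stood in both lists. KCNV2 was most like YBX3 (0.972), SLC25A25 (0.969) and SLC25A33 (0.968), and SLC24A2 most like RUNX1T1 (0.962), SETD2 (0.951) and RNPC3 (0.944). SLC24A1 was most like RIC8B (0.981), NXNL1 (0.978), which encodes a thioredoxin-like protein of rods, and AP1G1 (0.977). These values include the difference between PBS and CNTF arrays.

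Other genes of photoreceptor ion transport were also mostly lower in CNTF eyes. Of 12 genes tested, 8 were lower and 1 higher in CNTF eyes of normal dogs, with a median log2 change of -0.52 against -0.090 over all probes. The counts in mutants were also 8 and 1, with a median of -0.63 against -0.090. Over all probes 27.6% were lower in normal dogs and 17.3% in mutants. With normexp correction 4 genes of the list were lower in each genotype. With slide as a block 2 were lower and none higher in each, of 12 genes tested in normal dogs and 11 in mutants. That fit called 1146 of all probes in normal dogs and 795 in mutants, against 15017 and 8473 in the reported fit. The gene that rose was CACNA2D4, an auxiliary subunit of the calcium channel at the photoreceptor synapse, at 0.94 in normal dogs and 0.50 in mutants, a call lost with slide as a block in both and with normexp in mutants. Of 3 measured relatives of the members, SLC24A5, the exchanger of pigment cells, was lower in normal dogs (-0.59, adjusted p = 0.0215) and SLC8A1, a sodium/calcium exchanger, in mutants (-0.60, adjusted p = 0.048), the latter turning to 0.15 with normexp correction. KCNB2 gave -0.21 and -0.27, neither called.

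Cyclic GMP and calcium control genes open and close the channels and sense calcium. Of 14 such genes tested, 5 were lower and none higher in normal dogs, with a median of -0.30. In mutants 8 were lower and 1 higher, with a median of -0.72, against 27.6% and 17.3% of all probes lower in normal dogs and mutants. In the slide-block fit 2 were lower and none higher in each genotype. That fit called 1146 of all probes in normal dogs and 795 in mutants. With quantile normalization 8 of the list were lower in normal dogs. GUCA1A, a calcium sensor of guanylate cyclase, changed by -2.50 in normal dogs (limma, adjusted p = 6.73e-06) and -3.26 in mutants (adjusted p = 1.4e-06). PDE6H, the inhibitory subunit of the cone phosphodiesterase, changed by -1.55 and -1.21, and PDE6G, its rod counterpart, by -0.46 and -1.14. PDE6C, the catalytic subunit in cones, changed by -0.50 in normal dogs (adjusted p = 0.00613), and its value in mutants was -0.10 (adjusted p = 0.569). The gene that rose in mutants was GUCA1C, another cyclase sensor, at 1.56 (adjusted p = 0.00899), named after its value was seen.

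Cone and rod markers, some of which are also among the cyclic GMP genes, changed too. Of 10 cone markers 7 were lower in normal dogs, and in mutants 7 were lower and 2 higher. Of all probes 27.6% were lower in normal dogs, and in mutants 17.3% were lower and 11.6% higher. With slide as a block 2 of 9 cone markers tested in normal dogs and 1 of 10 in mutants were lower, and none was higher. That fit called 1146 of all probes in normal dogs and 795 in mutants. ARR3, cone arrestin, changed by -3.09 and -4.09, GNAT2, cone transducin, by -1.82 and -1.41, and OPN1SW, the short-wavelength opsin, by -2.23 and -2.05. The 2 that rose in mutants were GUCA1C and GNB3 (0.42, adjusted p = 0.0192), named after their values were seen. The summed level of the cone list, in units of each array's 75th percentile, was 106 to 149 in PBS and 55.6 to 74.3 in CNTF eyes of the normal group, and 109 to 134 and 55.2 to 82.4 in the mutant group. Of 11 rod markers 5 were lower and 1 higher in normal dogs, and 8 were lower in mutants, against 27.6% and 17.3% of all probes lower. The slide-block fit called 0 in normal dogs and 1, lower, in mutants, and with quantile normalization 7 and 8 were lower. Among them PDC, phosducin, changed by -1.18 in normal dogs and gave -0.36 in mutants (adjusted p = 0.352), and GNB1, a transducin beta subunit, changed by -0.40 in normal dogs and -1.26 in mutants. GNGT1, rod transducin gamma, changed by -0.62 in normal dogs with its spot saturated on 9 arrays. NRL, the transcription factor of rods, rose by 0.66 in normal dogs and gave -0.20 in mutants (adjusted p = 0.319). The summed rod level ran from 691 to 836 in the PBS and from 469 to 670 in the CNTF arrays of normal dogs, and from 781 to 1213 and from 448 to 676 in mutants.

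Markers of other cells moved with treatment too. All 9 microglia and macrophage markers tested rose in normal dogs and 8 of 9 in mutants, against 23.6% and 11.6% of all probes, with medians of 3.12 and 2.56. C1QA, a complement component, rose by 3.87 and 3.29 and CSF1R, a growth factor receptor of these cells, by 3.12 and 2.56. Their summed level was 4.85 to 6.53 in PBS and 23.6 to 37.0 in CNTF eyes of normal dogs, and 6.94 to 10.1 and 24.9 to 40.8 in mutants. In PBS eyes of each genotype 1 of these 9 was above background on no array. The part of such cells in the members' falls was not tested. Of 6 Müller glia markers 3 rose and 1 fell in normal dogs, and 1 rose and 2 fell in mutants, with medians of 0.41 and -0.22. GLUL, glutamine synthetase, changed by -0.96 and -1.96, in normal dogs against the direction of the list's median and of the 3 that rose. With slide as a block none of the 6 was called. Over all probes 27.6% were lower in normal dogs and 17.3% in mutants. Of 8 bipolar markers 4 were lower in normal dogs and 5 in mutants, among them GRM6, the glutamate receptor of ON bipolar cells, at -0.70 and -0.61, the latter turning to 0.13 with normexp correction. Of 9 markers of the pigment epithelium and choroid 4 and 3 were lower, and their summed level was 127 to 170 in PBS and 145 to 180 in CNTF eyes of normal dogs, and 147 to 210 and 125 to 182 in mutants. None of these 9 was called with slide as a block. Microglia markers higher with slide as a block were 7 in normal dogs and 3 in mutants, and among bipolar markers 0 were called in normal dogs and 1 in each direction in mutants. Of all probes that fit called 1146 in normal dogs and 795 in mutants. No red cell marker could be tested. In the slide-block fit the medians of microglia markers were 2.99 and 2.83, those of cone markers -0.998 and -0.62 and those of rod markers -0.18 and -0.85. In neither comparison of genotypes was any gene of these lists called.

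**Figure D4:**
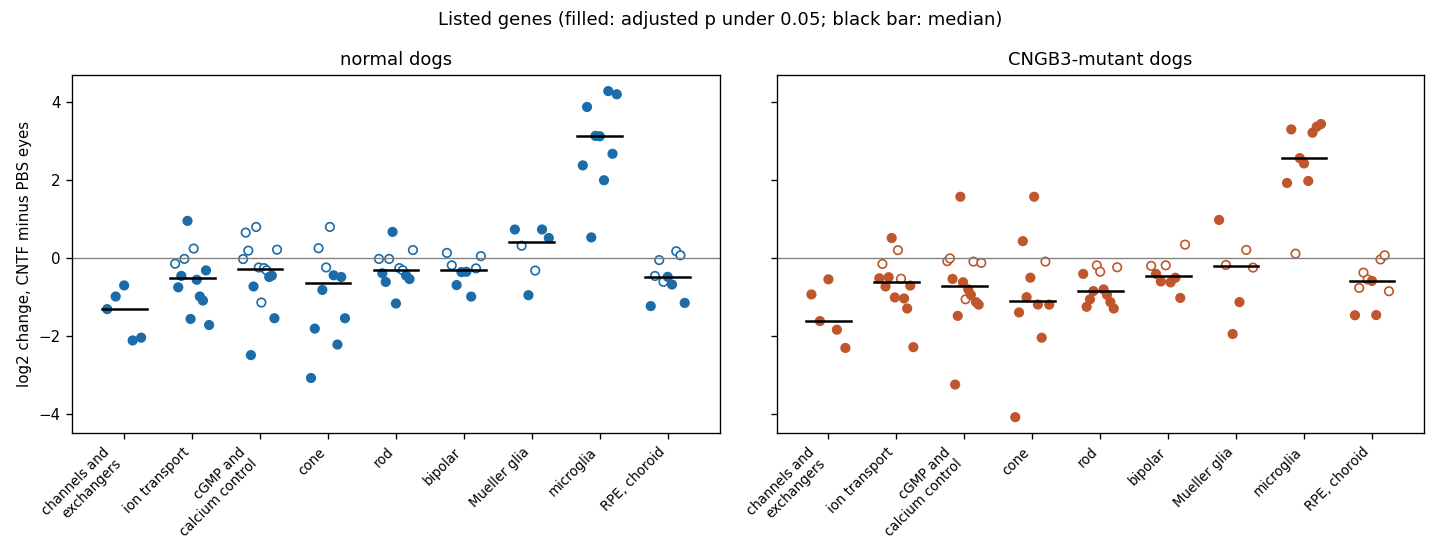
Log2 change between CNTF and PBS eyes for the 5 members' main probes and for the genes of each list, 1 point per gene, filled where the adjusted p is under 0.05, with a black bar at the list's median. The members lie below 0 in both genotypes, photoreceptor lists lie mostly below 0, and microglia markers lie above it, with medians of 3.12 and 2.56.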

How the data were processed

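Per the labels' protocols, 100 ng of retinal RNA per eye was amplified and labelled with Cy3. Spot intensities were deposited as scanner files of Agilent Feature Extraction 9.5.3.1, which, per the file headers, subtracted background and detrended each array without scaling between arrays. Marks for saturation, background and outlier spots came from the same deposited files. The deposited matrix holds log2 values with the same median, 6.185, in every column, and slopes of 0.955 to 1.06 against log2 intensity. The submitters' processing notes name Partek 6.4 without a role, how the matrix was made is not given in the sources used here, and the matrix was used only as an alternative. Slides and scan times were read from the files and parted the arrays alike.

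Control spots (1417 per array) and outlier-marked spots were left out, and spots of a probe were averaged. Log2 processed signal minus the array's 75th percentile (291 to 592.5 intensity units) was used, and 29466 probes were kept, each well above background in 1 group or more on at least 4 of its 5 arrays. Tests used limma 3.58.1 in R 4.3.3, two-sided, with Benjamini-Hochberg adjustment over all probes and calls under 0.05. CNTF changes and their difference came from 1 fit to 20 arrays with the dog as a block, and genotypes were compared on 10 arrays without covariates. At least 3 values per group were needed (2 in the alternatives of male dogs only and without the dogs of slide 3), and a dog with 1 eye measured adds nothing to the CNTF change. Both eyes carry a dog's number, genotype, sex and age in the labels. The deviations of same-numbered arrays correlated at -0.15 to 0.689, and those of the 500 probes that varied most at 0.173 to 0.734. Dogs are the replicates, and their number limits the precision. Simulated data with known changes returned 95.3% of 4-fold, 55.2% of 2-fold and 14.9% of 0.5 log2 changes in the CNTF comparison of normal dogs, on 29334 probes. Between genotypes in PBS eyes they returned 82.8%, 55.2% and 4.48%. Few probes were changed in them and no slide effect was added, so real changes may be found at other rates. Figures used Python 3.11.15 with matplotlib 3.10.9. Symbols came from the array files and a RefSeq table of UU_Cfam_GSD_1.0.

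The members and gene lists were chosen with earlier results of these data known. Named are all member probes, the 3 genes with the smallest adjusted p per list and comparison, and the 3 probes most alike to each main probe. Some genes that this rule names are not reported here. For the genotype comparisons and for bipolar, Müller, microglia and pigment epithelium lists fewer are printed. The alternatives were other dog and slide terms, male dogs only, other scaling, normexp, the deposited matrix, other filters, other probes and each dog left out. Keeping marked spots and leaving out the dogs of slide 3 were added after seeing the data.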

Additional observations from a re-analysis of the deposited data

Results flagged for a closer look

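At the main SLC24A2 probe, the PBS eye of normal dog 3 lay at 0.63, while the other 4 PBS eyes of normal dogs lay between 0.14 and 0.25. Its gap to the next array was 0.774 of the group's range, above the critical value for 5 samples. It was the only such array among 35 groups of member probes examined, and about 1 in 20 groups would be marked by chance.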

How the results depend on the processing

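In every setting tried the CNTF changes of the 5 main probes were negative in both genotypes. Their calls held in every fit that could be made with a dog left out. Ranges in normal dogs were -1.47 to -1.20 for CNGB3, -1.14 to -0.91 for KCNV2 and -0.82 to -0.59 for SLC24A2. They were -2.44 to -1.86 for CNGA1 and -2.11 to -2.01 for SLC24A1. For CNGA1 only 7 of the 10 such fits could be made. None of them left out a mutant measured in both eyes, so its mutant change stayed at -1.85 and was not tested by this step. No replicate block (dog left out of the model) ended no call of a member, and the probes called were then 11518 in normal dogs and 6664 in mutants, against 15017 and 8473. In normal dogs slide as a block called 1146 probes and 2 of the 4 members testable, slide and dog as blocks 0 and 0, and normexp 5758 probes. In mutants slide as a block called 795 probes and 2 members, slide and dog as blocks 47 and 0, male dogs only 2635 and 3, normexp 3297 and 3, and the fit without the dogs of slide 3, chosen after seeing the data, 4857 probes. The fits of fewer dogs test fewer arrays, and for the rest the cause was not tested. Normexp moved the median of all probes by 0.18 in normal dogs and 0.26 in mutants, and scaling to the median by 0.11 in normal dogs.

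For the difference of the CNTF changes the probes called were 69 with slide as a block, 45 with slide and dog, 5 with slide as a random block and 0 to 4 with a dog left out, 4 of them without mutant 1. SLC24A2 turned to -0.050 in male dogs and to -0.044 at both other probes, and SLC24A1 to 0.075 with slide as a block and 0.20 with normexp. In PBS eyes the genotype comparison called 2 probes with slide as a block, 9935 with slide as a random block (1 member), 147 with all 20 arrays, 30 in male dogs, 1 with quantile normalization or the deposited matrix, 2 with scaling to the median or normexp, 4 without a filter, 3 above background on all arrays, 3 with marked spots kept, 6292 without the dogs of slide 3 (2 members) and 1 to 6292 with a dog left out (0 to 1 members). SLC24A1 turned to -0.020 there with slide as a block. In CNTF eyes the counts were 104 with slide as a block, 28 as a random block, 22 with all 20 arrays, 5 in male dogs, 0 with quantile, median, normexp, deposited, unfiltered or fully filtered values, and 0 to 60 with a dog left out, 60 without mutant 1. In the reported fit all 5 member differences in CNTF eyes lay near 0, and each turned sign in other settings. CNGB3 turned to 0.13 with normexp. KCNV2 ran between -0.21 and 0.0096 with a dog left out and reached -0.30 in another setting. SLC24A2 turned to 0.28 with slide as a block, 0.018 with normexp and 0.13 without the dogs of slide 3. With a dog left out SLC24A2 lay between -0.15 and 0.050. With slide as a block CNGA1 was -0.60 at its main and -0.74 at its second probe. CNGA1 reached 0.11 with slide as a random block, 0.022 in male dogs, 0.026 with quantile normalization, 0.0093 with scaling to the median, 0.021 at its second probe and -0.18 to 0.15 with a dog left out. SLC24A1 reached 0.055 with slide as a block, 0.32 with normexp, 0.046 without the dogs of slide 3 and -0.18 to 0.048 with a dog left out.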
